A study of Mus musculus with 9 samples.

Results

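The 31 genes described here mark microglia, the resident macrophages of the brain, and were taken by symbol from the deposited expression table. All 31 were found among its 35125 genes, and all 31 passed the filter on low values that left 14013 genes (at least 0.5 FPKM in at least 3 of 9 libraries). FPKM is a read level corrected for the length of the transcript and for the size of the library. RNA came from the medial prefrontal cortex of mice in 3 groups with 3 libraries each: a running model that the labels call exercise, a model of chronic unpredictable stress (CUS) labelled as stress, and a control labelled as free of stress. The series text places running in CUS-exposed mice, so the running and CUS groups share the stress and differ in running, while the control group had neither. The labels also carry "4week" and "week8" for every library and do not say what either period covers, and strain, age and the running schedule are not stated in what was used here. Whether each library is a separate animal is not said, so p-values measure the spread between libraries, which may be technical.

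Microglia take up debris and synaptic material, survey their surroundings with motile processes and depend on signalling through the receptor Csf1r to survive. In the undisturbed brain they carry purine receptors, the fractalkine receptor Cx3cr1 and surface proteins such as Tmem119, and they are the main source of the complement subunits C1qa, C1qb and C1qc in the brain. Spi1, also called PU.1, is the transcription factor that defines myeloid cells and binds purine-rich DNA with a GAGGAA core at many microglial genes.

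The promoters of 6 members are shown, namely all those that carry that core and whose running values all lay below all CUS values, as the results give in turn. RefSeq promoters of GRCm38.p6, from 250 bases before to 50 bases after a start site, were found for 22 of the 31 members. That site is not always the outermost base of the gene, as for C1qc and Siglech. In each, GAGGAA and its reverse complement TTCCTC were searched on both strands and are written in capitals. The windows are chr4:136886151-136886450 (C1qb), chr4:136892865-136893164 (C1qc), chr3:59210833-59211132 (P2ry13) and chr11:69666121-69666420 (Cd68) on the minus strand, and chr3:95526536-95526835 (Ctss) and chr7:55767934-55768233 (Siglech) on the plus strand, each written 5′ to 3′ in the direction of its gene.
C1qb: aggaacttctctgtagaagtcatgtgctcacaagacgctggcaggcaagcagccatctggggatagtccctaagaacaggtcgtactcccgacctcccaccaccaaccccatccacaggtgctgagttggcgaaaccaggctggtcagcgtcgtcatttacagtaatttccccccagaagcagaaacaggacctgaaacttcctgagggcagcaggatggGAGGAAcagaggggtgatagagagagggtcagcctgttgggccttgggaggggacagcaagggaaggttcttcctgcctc
C1qc: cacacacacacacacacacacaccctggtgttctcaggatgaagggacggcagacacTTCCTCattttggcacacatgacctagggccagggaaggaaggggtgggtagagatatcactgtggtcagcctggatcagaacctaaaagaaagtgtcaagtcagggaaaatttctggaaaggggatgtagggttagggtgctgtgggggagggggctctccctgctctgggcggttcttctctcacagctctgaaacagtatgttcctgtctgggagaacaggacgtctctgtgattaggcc
P2ry13: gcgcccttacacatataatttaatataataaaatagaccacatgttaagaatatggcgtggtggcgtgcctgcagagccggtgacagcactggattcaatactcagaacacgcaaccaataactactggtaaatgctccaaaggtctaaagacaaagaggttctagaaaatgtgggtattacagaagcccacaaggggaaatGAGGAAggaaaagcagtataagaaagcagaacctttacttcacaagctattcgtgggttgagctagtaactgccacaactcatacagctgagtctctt
Cd68: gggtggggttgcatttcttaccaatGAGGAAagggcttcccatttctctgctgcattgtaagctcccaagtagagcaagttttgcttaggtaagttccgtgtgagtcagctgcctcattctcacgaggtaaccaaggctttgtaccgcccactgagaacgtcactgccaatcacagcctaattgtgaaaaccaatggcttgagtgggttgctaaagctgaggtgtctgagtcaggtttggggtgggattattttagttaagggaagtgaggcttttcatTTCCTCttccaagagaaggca
Ctss: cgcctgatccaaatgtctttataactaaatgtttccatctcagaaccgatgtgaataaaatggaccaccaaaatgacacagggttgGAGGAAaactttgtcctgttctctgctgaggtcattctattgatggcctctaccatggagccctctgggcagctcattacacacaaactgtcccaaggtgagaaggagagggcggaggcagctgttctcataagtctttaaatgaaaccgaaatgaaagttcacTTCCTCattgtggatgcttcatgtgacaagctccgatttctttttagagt
Siglech: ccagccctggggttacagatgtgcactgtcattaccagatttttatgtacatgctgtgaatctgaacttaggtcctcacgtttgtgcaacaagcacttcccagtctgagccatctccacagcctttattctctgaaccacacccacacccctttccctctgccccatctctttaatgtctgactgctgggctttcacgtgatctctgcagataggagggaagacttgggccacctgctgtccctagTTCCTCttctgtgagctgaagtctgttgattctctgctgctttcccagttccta

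The core occurred in 14 of the 22 members with a promoter (63.6%), against 30.2% of the 11159 tested genes with a promoter and 28.2% of all 32786 promoters of that length. The C1qb promoter held it 30 bases and the P2ry13 promoter 48 bases before the start, and the Cd68 and Ctss promoters held it at 2 places each. The longer form GAGGAAGT, which contains the core, or its reverse complement was present in 3 of the 22 (C1qc, Cd53 and Ctss), or 13.6%, against 3.30% of tested genes. The core also occurred in the promoters of Siglech, Aif1, Fcgr3, Fcrls, Itgam, Laptm5, Ptprc and Trem2. The members' promoters were also poorer in CpG, with a median of 6 CpG against 19 over tested genes, and in GC, with 50.3% against 60.7%. Of the other members with all running values below all CUS values, Fcer1g had a promoter without the core, and no promoter was found for Gpr34 and Spi1. The promoters shown were chosen by both traits, so they cannot link the core to the running values, and no such link was tested. A match of letters is a description of the sequence, and binding was not measured.

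The FPKM of all genes added up to 370441 in the lowest and 423257 in the highest library, which was CUS replicate 3, the library that also had the lowest mean correlation with the other libraries across genes (0.987, against 0.990 to 0.993). The read depth behind the values is unknown. Values below are listed in the order of replicates 1 to 3, and equal numbers do not pair libraries across groups. Camk2a, a marker of cortical excitatory neurons, averaged 918 FPKM, the highest of the listed markers of those neurons. The 31 microglial genes ranged in mean level from 0.564 FPKM (Ptprc) to 46.8 FPKM (C1qa), with a median of 9.75 FPKM.

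Most of the 31 members had a higher mean in CUS than in control cortex and a lower mean in running than in CUS. The differences were small, and none of the 31 passed the adjusted threshold. In CUS against control, 26 of 31 had a higher mean (83.9%, against 55.9% of all tested genes), with a median log2 difference of 0.13 against 0.02 over all genes. In running against CUS, 26 of 31 had a lower mean (83.9%, against 57.8% of all genes), with a median of -0.20 against -0.03. Running against control was near balance, with 17 of 31 lower (54.8%, against 56.2% of all genes) and a median of -0.04 against -0.02. The CUS libraries enter the first 2 comparisons with opposite sign, so the first and second shifts are not independent of each other. In bulk tissue, fewer microglia and less of these RNAs per microglial cell cannot be told apart.

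**Figure D1:**
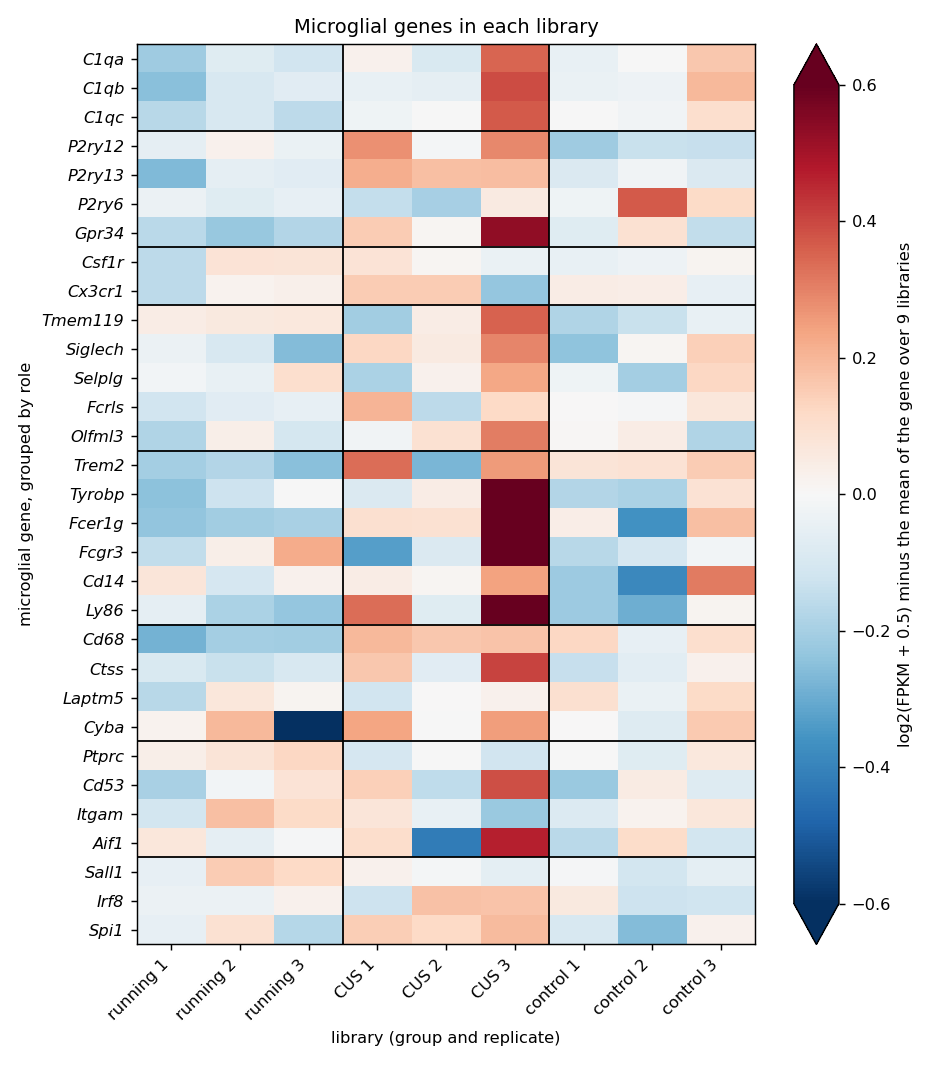
Level of each of the 31 microglial genes in each of the 9 libraries, as log2(FPKM + 0.5) minus the gene's mean over the 9 libraries, with colours capped at -0.6 and 0.6 and genes grouped by role. CUS replicate 3 is the highest library for 18 of 31 genes, and running replicate 1 is the lowest for 9.

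The limma test with Benjamini-Hochberg adjustment over 14013 genes called 0 of the 31 microglial genes at an adjusted p under 0.05 in each comparison. It called 1 gene of all tested in CUS against control (0.00714%), 1 in running against CUS (0.00714%) and 3 in running against control (0.0214%). At an unadjusted p under 0.05, 10 members were lower in running than in CUS (32.3%, against 15.7% of all genes) and 0 were higher (7.74% of all genes). They were C1qc, P2ry12, P2ry13, Gpr34, Siglech, Trem2, Fcer1g, Ly86, Cd68 and Ctss. In CUS against control, 6 were higher at that level (19.4%, against 8.90%), namely P2ry12, P2ry13, Gpr34, Ly86, Ctss and Spi1, and 0 were lower (5.79% of all genes). In running against control, 2 were lower, Cd68 and Trem2 (6.45%, against 6.47%), and 0 were higher (5.15% of all genes). At an adjusted p under 0.1, 3 members were lower in running than in CUS (P2ry13, Cd68 and Gpr34), or 9.68% of members against 4.50% of all genes.

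The unadjusted counts depended on how libraries were scaled. After rescaling to TPM, so that every library has the same sum, 5 members were lower in running than in CUS (6.59% of all genes) and 0 were higher (17.6% of all genes), and the balance over all genes turned toward higher values. On that scale 3 members were higher in CUS than in control (4.06% of all genes) and 1 was lower (9.98% of all genes), and the balance over all genes turned toward lower values. In running against control it gave 2 members lower (4.27% of all genes) and 1 higher (7.27% of all genes). On the TPM scale 20 of 31 members had a lower mean in running than in CUS and their median was -0.11, while over all genes 5144 were lower and 8900 higher, with a median of 0.06. In CUS against control 19 of 31 members then had a higher mean, with a median of 0.07, while over all genes 5515 were higher and 8529 lower, with a median of -0.04.

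Counting separation of the libraries alone, 9 members had all 3 running values below all 3 CUS values (29.0%, against 15.9% of all genes). These were C1qb, C1qc, P2ry13, Gpr34, Siglech, Fcer1g, Cd68, Ctss and Spi1, while Ptprc alone had all running values above all CUS values (3.23%, against 8.99%). For CUS against control, 4 members (P2ry12, P2ry13, Cd68 and Spi1) were separated upward (12.9%, against 12.1%) and 0 downward (7.6% of all genes). For running against control, 8 members were separated downward (25.8%, against 11.9%): C1qa, C1qb, C1qc, P2ry6, Gpr34, Fcrls, Trem2 and Cd68. P2ry12 and Tmem119 were separated upward (6.45%, against 10.5%). An exact permutation test of 3 against 3 libraries cannot give a two-sided p below 0.1. Smaller single-gene p-values here thus rest on the model that limma fits, in which each variance is partly shared across genes.

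CUS replicate 3 carried part of these shifts. It was the highest of the 9 libraries for 18 members (58.1%, against 30.9% of all genes), and the mean of the members' centred log2 values was 0.26 there, against 0.06 and -0.02 in CUS replicates 1 and 2. That mean was -0.11, -0.03 and -0.07 in running libraries and -0.06, -0.06 and 0.04 in control libraries. Without CUS replicate 3 the members' median was -0.10 in running against CUS, and 7 members were lower at an unadjusted p under 0.05 (22.6%, against 12.3% of all genes). Without it the median was 0.07 in CUS against control, where 3 members were higher at that level (9.68%, against 5.79%). The same mean over 10 cytosolic ribosomal protein genes, led by Rplp1 and used as a check of library composition, was -0.13, -0.13 and -0.24 in running, 0.12, 0.03 and 0.46 in CUS, and -0.11, -0.06 and 0.05 in control libraries. The ribosomal genes thus also stood highest in CUS replicate 3. The parallel was not limited to that library, as all 10 had every running value below every CUS value (15.9% of all genes). Their median log2 difference was -0.36 in running against CUS and 0.23 in CUS against control, larger than that of the microglial genes in both. The part of library composition in the microglial result was not tested.

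C1qa, C1qb and C1qc encode the chains of C1q, which starts the classical complement pathway and tags synapses for removal by microglia. They were among the 4 highest members in mean FPKM, a scale per length on which genes can be set side by side. C1qa had 40.0, 44.2 and 42.9 FPKM in running libraries, 47.4, 43.6 and 59.3 in CUS libraries, and 45.1, 46.4 and 52.1 in control libraries. C1qb had 34.6, 38.5 and 39.3 FPKM in running, 39.9, 39.7 and 54.2 in CUS, and 40.0, 40.3 and 47.2 in control libraries. C1qc had 38.8, 40.6 and 39.0 FPKM in running, 42.7, 43.4 and 56.3 in CUS, and 43.4, 42.9 and 46.7 in control libraries. For all 3 subunits each running value lay below each control value, and the only overlap with CUS was that of C1qa in CUS replicate 2. The log2 differences of running against CUS were -0.23 ± 0.10 (SE) for C1qa, -0.23 ± 0.12 for C1qb and -0.25 ± 0.09 for C1qc, with limma adjusted p of 0.213, 0.247 and 0.150. Against control they were -0.17, -0.18 and -0.17, with adjusted p of 0.550, 0.583 and 0.529.

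CUS against control gave the C1q subunits differences of 0.05, 0.06 and 0.09, and these turned to -0.07, -0.09 and -0.04 without CUS replicate 3. Without that library the running against CUS differences were -0.10, -0.09 and -0.12. The C1qa and C1qb differences of CUS against control also turned negative after quantile normalization and after rescaling to TPM, by at most 0.01 on the log2 scale. The subunits kept nearly 1 ratio in every library: C1qb stood at 0.842 to 0.915 of C1qa, and C1qc at 0.897 to 0.995. The 3 genes lie side by side on chromosome 4 (GRCm38.p6, minus strand), C1qb at 136880126 to 136886200, C1qc at 136889801 to 136892936 and C1qa at 136895916 to 136898844.

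**Figure D2:**
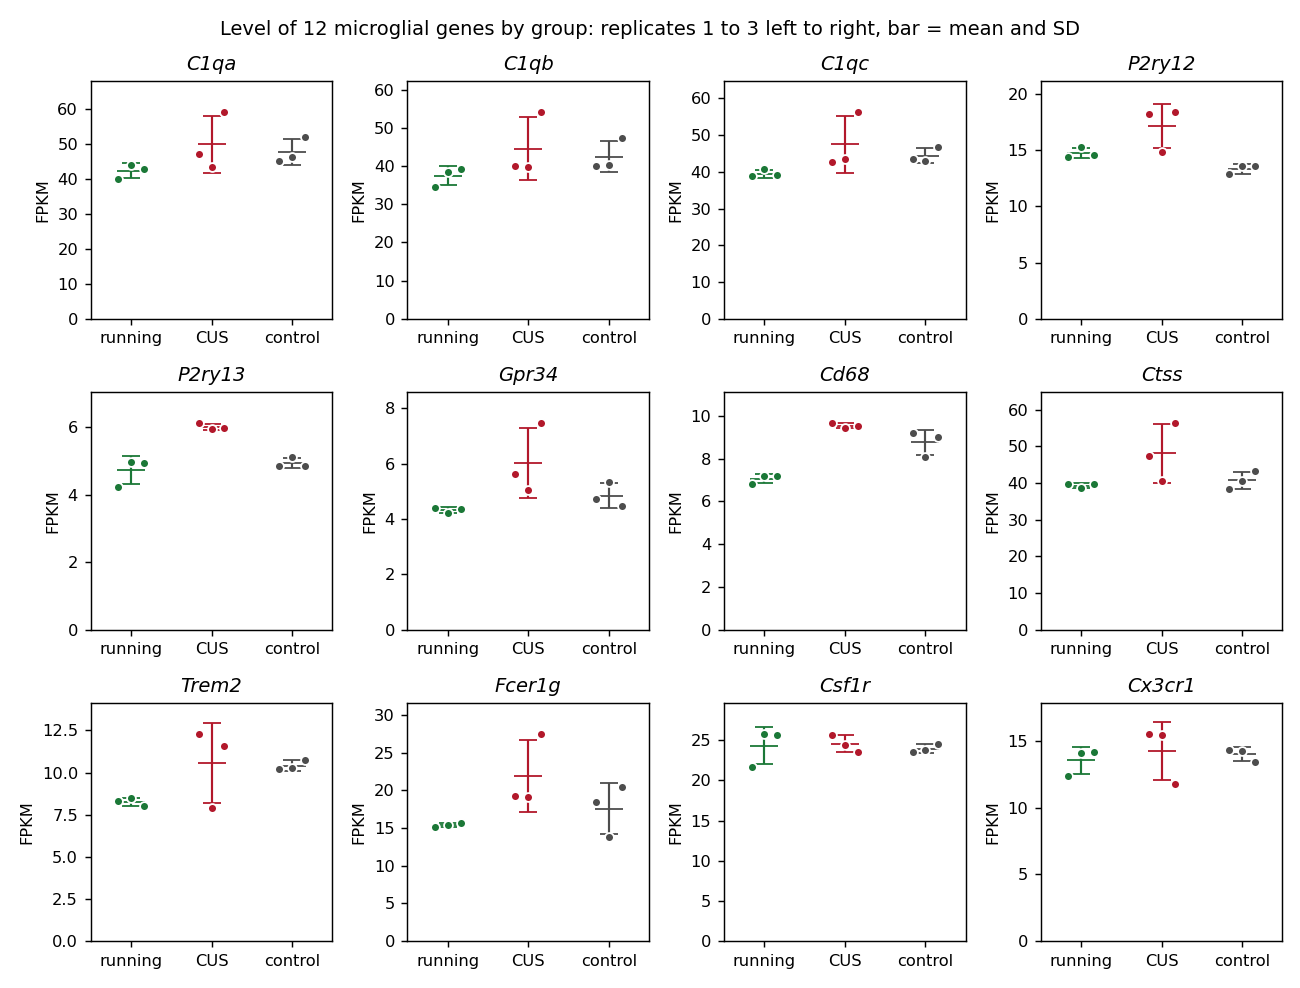
FPKM of 12 microglial genes in running, CUS and control libraries, with replicates 1 to 3 from left to right in each group and bars for the mean and SD (n = 3). Cd68 shows 3 running values between 6.81 and 7.21 FPKM that lie below all other libraries, and Csf1r and Cx3cr1 show overlapping groups.

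The purine receptors P2ry12 and P2ry13 and the lysophosphatidylserine receptor Gpr34 had their highest group mean in CUS. P2ry12 steers microglial processes toward ADP released by injured or active cells. Its level was 14.4, 15.2 and 14.5 FPKM in running, 18.2, 14.9 and 18.4 in CUS, and 12.9, 13.6 and 13.6 in control libraries. Every CUS and every running value was above every control value, while CUS replicate 2 lay within the running range. P2ry12 in CUS against control had the smallest unadjusted p of the members in that comparison, with a log2 difference of 0.35 ± 0.08 (SE) and an adjusted p of 0.236. Over the 19 alternatives its difference ranged from 0.28 to 0.44 and its adjusted p from 0.0561 to 0.514. Running against CUS gave -0.21 ± 0.08 with an adjusted p of 0.159.

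P2ry13, another ADP receptor, had 4.24, 4.98 and 4.94 FPKM in running, 6.12, 5.96 and 5.97 in CUS, and 4.86, 5.12 and 4.86 in control libraries. The CUS values, at 6.02 ± 0.09 FPKM (SD, n = 3), were tight and above all 6 other libraries. Running against CUS was -0.32 ± 0.08 (SE) on the log2 scale with an adjusted p of 0.0776, and CUS against control was 0.26 ± 0.08 with an adjusted p of 0.260. Without CUS replicate 3 these differences were -0.33 and 0.26, as large as with it. Over the 19 alternatives the running against CUS difference ranged from -0.36 to -0.23, with adjusted p from 0.0180 to 0.286.

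Gpr34 had 4.41, 4.20 and 4.36 FPKM in running, 5.61, 5.04 and 7.46 in CUS, and 4.73, 5.35 and 4.46 in control libraries. The running values lay below all others, and the CUS and control ranges overlapped. The difference of running against CUS was -0.42 ± 0.12 (adjusted p of 0.0974), and -0.27 without CUS replicate 3. P2ry6, a UDP receptor tied to phagocytosis, had a lower mean in CUS than in control cortex, with 1.43, 1.38 and 1.41 FPKM in running, 1.29, 1.22 and 1.55 in CUS, and 1.44, 2.05 and 1.64 in control libraries. Its CUS against control difference was -0.25 ± 0.12 with an adjusted p of 0.357, and its CUS and control values overlapped, while all running values lay just below all control values.

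Some of these receptor genes lie inside other genes, and the library protocol does not mark the strand. P2ry12 and P2ry13 lie on chromosome 3 within Med12l, which runs on the opposite strand and whose exons overlap those of P2ry12. Med12l had 4.20, 4.36 and 4.44 FPKM in running, 3.87, 2.77 and 4.13 in CUS, and 4.23, 4.32 and 3.93 in control libraries. Gpr34 lies within Cask on the X chromosome, also on the opposite strand. Cask had 11.4, 10.5 and 11.1 FPKM in running, 10.9, 10.6 and 9.89 in CUS, and 11.4, 11.9 and 10.3 in control libraries. Exons of Csf1r also overlap those of Hmgxb3, which runs on the opposite strand and lay between 10.6 and 12.5 FPKM. Exons of Itgam overlap those of Gm49368 on the same strand. The part of reads from these overlapping genes in the members' values, Csf1r included, was not tested. When the 5 members inside another gene (P2ry12, P2ry13, Gpr34, Cyba and Irf8) were left out, the members' medians were 0.10 in CUS against control and -0.15 in running against CUS.

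For the survival and chemokine receptors the 3 group means were close. Csf1r, the receptor for the growth factors Csf1 and Il34, had 21.7, 25.7 and 25.6 FPKM in running, 25.7, 24.4 and 23.6 in CUS, and 23.5, 23.8 and 24.6 in control libraries. Cx3cr1, which receives the neuronal chemokine Cx3cl1, had 12.4, 14.1 and 14.2 FPKM in running, 15.5, 15.5 and 11.8 in CUS, and 14.3, 14.3 and 13.4 in control libraries. For both genes the 3 groups overlapped, and CUS replicate 3, the highest library for 18 members, was the lowest of all 9 for Cx3cr1. The log2 differences of running against CUS were -0.02 ± 0.07 for Csf1r and -0.06 ± 0.10 for Cx3cr1, and those of CUS against control were 0.03 ± 0.07 and 0.01 ± 0.10.

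Ratios within a library do not change when all its values are multiplied by 1 factor, as in rescaling to TPM. They can change under quantile normalization or removal of a length and GC trend. Cd68 over Csf1r was 0.314, 0.280 and 0.280 in running, 0.376, 0.387 and 0.403 in CUS, and 0.390, 0.340 and 0.368 in control libraries. The running ratios were below the other 6. P2ry12 over Csf1r was 0.665, 0.592 and 0.568 in running, 0.710, 0.609 and 0.781 in CUS, and 0.547, 0.572 and 0.553 in control libraries, so that CUS and control were separated. Cd68 over P2ry12 lay at 0.472 to 0.494 in running, 0.517 to 0.635 in CUS and 0.595 to 0.714 in control libraries. These pairs of members were chosen after their values were seen and are given with no test.

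Of the other surface and secreted genes of resting microglia, Siglech, a Siglec-family receptor that pairs with Tyrobp, showed the clearest separation. Siglech had 7.65, 7.33 and 6.48 FPKM in running, 8.62, 8.17 and 9.75 in CUS, and 6.58, 7.94 and 8.73 in control libraries. The running values lay below the CUS values and overlapped the control values, and running against CUS was -0.29 ± 0.11 with an adjusted p of 0.149. Selplg, the P-selectin ligand, had 21.5, 20.98 and 23.3 FPKM in running, 18.9, 22.1 and 25.5 in CUS, and 21.3, 18.8 and 23.7 in control libraries, with all groups overlapping. Olfml3, a secreted olfactomedin-family protein, had 9.80, 11.4 and 10.3 FPKM in running, 11, 11.9 and 13.9 in CUS, and 11.2, 11.5 and 9.81 in control libraries, also overlapping. Tmem119, a transmembrane marker that separates microglia from other macrophages, had 11.3, 11.4 and 11.4 FPKM in running, 9.36, 11.3 and 14.1 in CUS, and 9.58, 9.91 and 10.6 in control libraries. Its running values lay above all control values, by 0.17 ± 0.12 on the log2 scale (adjusted p of 0.593), and within the CUS range. Fcrls, an Fc receptor-like scavenger receptor, averaged 9.41 ± 0.22 FPKM in running, 10.4 ± 1.38 in CUS and 10.1 ± 0.30 in control libraries (SD, n = 3).

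Among the activating receptors and their adaptors, CUS replicate 3 was often far above the other libraries. Tyrobp, also called DAP12, is the signalling adaptor of Trem2, and Fcer1g is the common gamma chain of Fc receptors. Tyrobp had 19.0, 20.7 and 22.6 FPKM in running, 21.3, 23.4 and 36.9 in CUS, and 20.0, 19.8 and 24.1 in control libraries. Its running against CUS difference of -0.34 ± 0.17 (adjusted p of 0.248) was -0.10 without CUS replicate 3. Fcer1g had 15.2, 15.4 and 15.6 FPKM in running, 19.2, 19.1 and 27.4 in CUS, and 18.4, 13.8 and 20.4 in control libraries. Its running values were nearly equal and below all CUS values, at -0.47 ± 0.15 with an adjusted p of 0.112, and at -0.31 without CUS replicate 3.

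Ly86, also called MD-1, partners the receptor Cd180 in the response to bacterial lipopolysaccharide, and had the largest log2 difference of the members in both comparisons with CUS. It had 8.04, 7.28 and 7.06 FPKM in running, 10.7, 7.92 and 13.9 in CUS, and 7.13, 6.74 and 8.48 in control libraries. CUS replicates 1 and 3 were above all other libraries, and CUS replicate 2 lay within their range. Running against CUS was -0.48 ± 0.16 (adjusted p of 0.123) and CUS against control 0.48 ± 0.16 (adjusted p of 0.267), and without CUS replicate 3 they were -0.29 and 0.29. Trem2, the lipid-sensing receptor that drives phagocytosis, had 8.29, 8.47 and 8.02 FPKM in running, 12.3, 7.88 and 11.6 in CUS, and 10.2, 10.2 and 10.8 in control libraries. Its running values lay below all control values, by -0.32 ± 0.13 on the log2 scale (adjusted p of 0.393), and only CUS replicate 2 was lower still. Running against CUS gave Trem2 -0.31 ± 0.13 with an adjusted p of 0.179.

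Fcgr3, the low-affinity IgG receptor III, and Cd14, a co-receptor for lipopolysaccharide, showed overlapping groups. Fcgr3 averaged 11.9 ± 1.59 FPKM in running, 12.5 ± 4.54 in CUS and 10.7 ± 0.58 in control libraries (SD, n = 3). Fcgr3 is similar in sequence to other Fc gamma receptors, so its share of reads is uncertain. Without CUS replicate 3 its difference of CUS against control was -0.11, against 0.16 with that library. Cd14 averaged 1.27 ± 0.11 FPKM in running, 1.4 ± 0.17 in CUS and 1.19 ± 0.44 in control libraries.

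Cd68 and Ctss act in the lysosome, where microglia digest what they take up. Cd68, a lysosomal membrane glycoprotein used as a marker of phagocytic activity, had 6.81, 7.21 and 7.18 FPKM in running, 9.66, 9.44 and 9.51 in CUS, and 9.18, 8.08 and 9.03 in control libraries. Running values lay below all 6 others, and CUS values above all others. Cd68 had the smallest unadjusted p of the members in running against CUS, with -0.41 ± 0.07 on the log2 scale and an adjusted p of 0.0776. Against control the running difference was -0.29 ± 0.07 with an adjusted p of 0.161. Without CUS replicate 3 the running against CUS difference was again -0.41. Over the 19 alternatives it ranged from -0.43 to -0.31 with adjusted p from 0.0117 to 0.286, and in running against control from -0.34 to -0.24 with adjusted p from 0.0544 to 0.484.

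Ctss, the protease cathepsin S, had 39.8, 38.6 and 39.7 FPKM in running, 47.5, 40.5 and 56.4 in CUS, and 38.5, 40.5 and 43.2 in control libraries. All CUS values were above all running values, and the running and control values overlapped. Running against CUS was -0.27 ± 0.10 with an adjusted p of 0.142, and -0.15 without CUS replicate 3. Laptm5, a lysosomal membrane protein of blood cells, averaged 20.2 ± 1.72 FPKM in running, 20.1 ± 1.04 in CUS and 21.4 ± 1.23 in control libraries (SD, n = 3). Cyba, the p22phox subunit of the superoxide-producing NADPH oxidase, had 5.89, 6.70 and 3.18 FPKM in running, 6.92, 5.79 and 7.0 in CUS, and 5.81, 5.47 and 6.52 in control libraries. Its low running mean rested on replicate 3, without which running against control was 0.08, against -0.21 with it.

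The general leukocyte genes had levels under 7 FPKM in every library and a median difference of 0.04 in running against CUS. Ptprc, or CD45, the phosphatase on all white blood cells, had 0.59, 0.62 and 0.66 FPKM in running, 0.49, 0.56 and 0.48 in CUS, and 0.56, 0.51 and 0.61 in control libraries. It was the lowest member in level, and its running values lay above all CUS values, by 0.15 ± 0.11 on the log2 scale (adjusted p of 0.427). Cd53, a leukocyte tetraspanin, had 2.24, 2.60 and 2.82 FPKM in running, 2.96, 2.32 and 3.59 in CUS, and 2.18, 2.74 and 2.47 in control libraries. Aif1, or Iba1, an actin-bundling protein widely used to stain microglia, had 4.92, 4.48 and 4.65 FPKM in running, 5.07, 3.37 and 6.64 in CUS, and 4.12, 5.08 and 4.29 in control libraries. Its CUS libraries held both the lowest and the highest value of all 9. Itgam, the CD11b chain of complement receptor CR3 that recognises cleaved C3, averaged 4.54 ± 0.52 FPKM in running, 4.12 ± 0.47 in CUS and 4.33 ± 0.25 in control libraries (SD, n = 3).

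Among the transcription factors, Spi1 alone showed separated groups. Spi1 had 3.02, 3.38 and 2.73 FPKM in running, 3.54, 3.45 and 3.66 in CUS, and 2.91, 2.54 and 3.21 in control libraries. Each CUS value was above each of the other 6. CUS against control was 0.26 ± 0.10 with an adjusted p of 0.295, and running against CUS was -0.20 ± 0.10 with an adjusted p of 0.258. Sall1, which maintains microglial identity, had 4.03, 4.72 and 4.59 FPKM in running, 4.28, 4.15 and 4.01 in CUS, and 4.17, 3.85 and 4.00 in control libraries. Irf8, a partner of PU.1, had 1.84, 1.84 and 1.94 FPKM in running, 1.70, 2.21 and 2.2 in CUS, and 2.00, 1.70 and 1.71 in control libraries. The groups of both genes overlapped in each comparison.

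**Figure D3:**
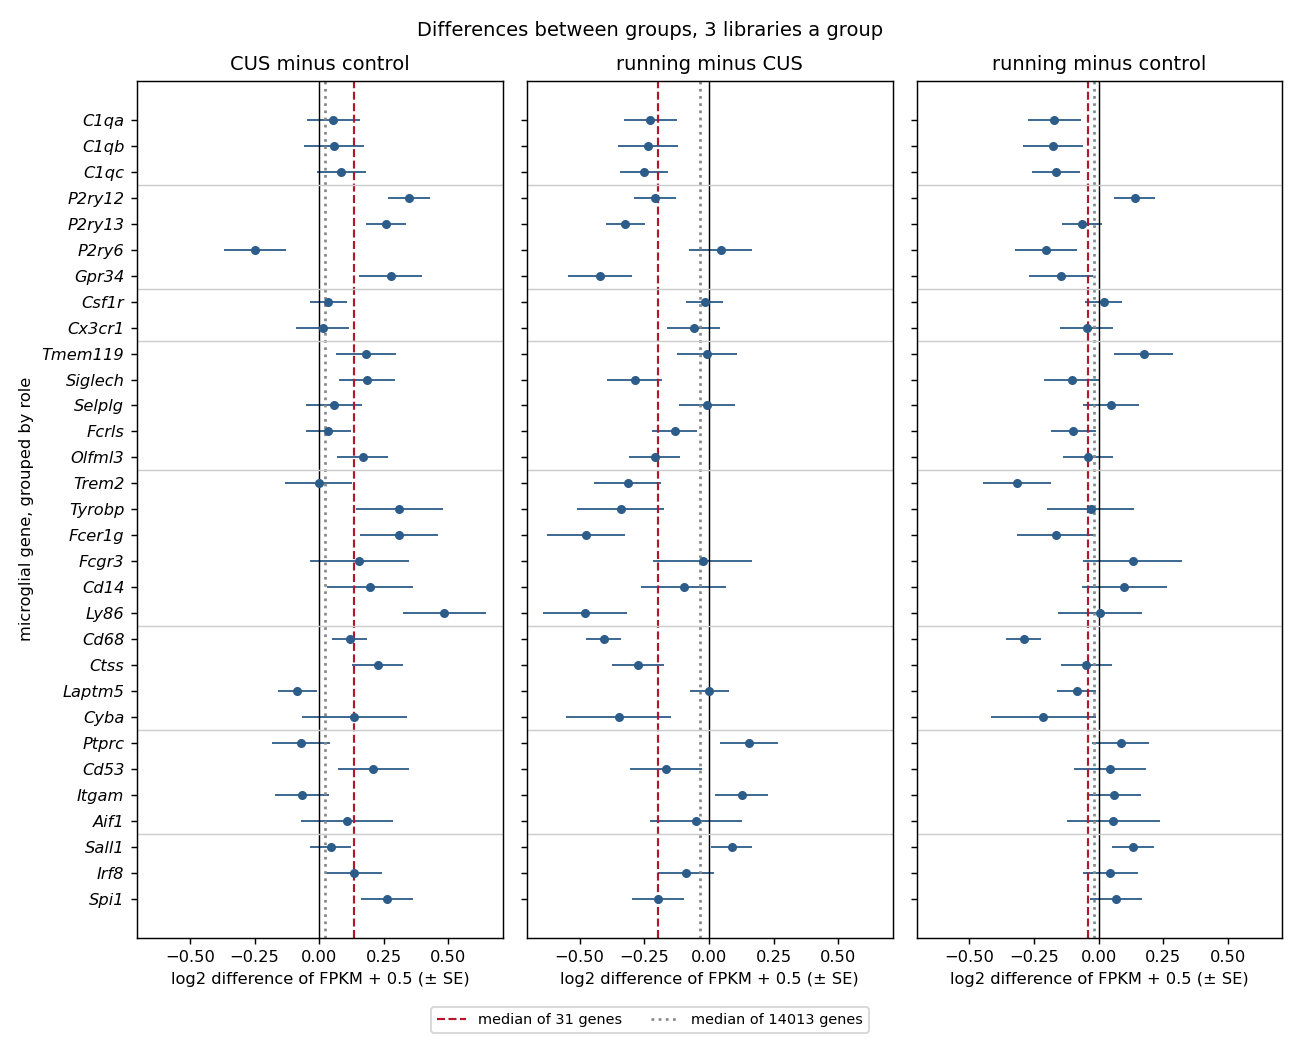
Log2 difference of mean log2(FPKM + 0.5) with its limma standard error for each of the 31 microglial genes in CUS minus control, running minus CUS and running minus control, grouped by role. The dashed line is the median of the 31 genes (0.13, -0.20 and -0.04) and the dotted line that of the 14013 tested genes (0.02, -0.03 and -0.02).

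By role, the median log2 difference of running against CUS was -0.33 for the activating receptors and adaptors, -0.31 for the lysosome and oxidase genes and -0.27 for the nucleotide and lysophospholipid receptors. It was -0.23 for the C1q subunits, -0.13 for the other surface and secreted genes and -0.09 for the transcription factors. It was -0.04 for Csf1r and Cx3cr1, and 0.04 for the leukocyte genes. These medians rest on 2 to 6 genes each.

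A further list held 53 microglia-enriched genes. Of these, 48 were tested, and in running against CUS 25 had a lower and 23 a higher mean, with a median of -0.05 against -0.03 over all genes and 0 called. In running against control 33 of the 48 had a lower and 15 a higher mean (median of -0.05, against -0.02 over all genes), and in CUS against control 20 a lower and 28 a higher mean (median of 0.03, against 0.02). Hpgd, a prostaglandin-degrading enzyme, had 3.44, 3.83 and 3.66 FPKM in running, 4.22, 4.93 and 5.32 in CUS, and 3.62, 4.00 and 3.14 in control libraries. Its CUS values were above all others, with -0.36 for running against CUS (adjusted p of 0.0978) and 0.38 for CUS against control (adjusted p of 0.253). Havcr2, or Tim-3, had 1.5, 1.28 and 1.54 FPKM in running, 1.33, 1.23 and 1.59 in CUS, and 2.08, 1.58 and 1.95 in control libraries. Unc93b1, which carries Toll-like receptors to endosomes, differed by -0.16 between running and control (adjusted p of 0.459), and Cst3, the protease inhibitor cystatin C with the highest mean of the list, by -0.32 between running and CUS (adjusted p of 0.155).

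For the ligands that neurons and astrocytes offer to microglial receptors, 0 of 11 were called in any comparison. Cx3cl1, the ligand of Cx3cr1, had 321, 314 and 353 FPKM in running, 274, 305 and 278 in CUS, and 352, 311 and 313 in control libraries. All CUS values were the lowest of the 9 libraries, with 0.21 for running against CUS (adjusted p of 0.144) and -0.19 for CUS against control (adjusted p of 0.311). Il34, a ligand of Csf1r, had 37.5, 35.9 and 35.8 FPKM in running, 34.5, 38.6 and 40.8 in CUS, and 33.0, 33.9 and 33.4 in control libraries, so that running and CUS values were above all control values. CUS against control for Il34 was 0.18 with an adjusted p of 0.286. Pros1, Clu, Cd200 and Apoe, which had the highest mean of the list, had adjusted p between 0.164 and 0.846 in the 3 comparisons.

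Of 21 complement genes beyond C1q, 19 were tested and 0 were called in each comparison, with 13 lower and 6 higher in running against CUS and a median of -0.05. Cd46, a regulator that protects cells from complement, had 2.25, 2.61 and 2.36 FPKM in running, 3.31, 2.76 and 3.45 in CUS, and 3.05, 3.42 and 3.04 in control libraries. Its running values lay below all others, by -0.33 against CUS (adjusted p of 0.0990) and -0.34 against control (adjusted p of 0.264). C2, C4b, Csmd1, Nptx2 and Nptx1 had adjusted p of 0.129 or more in each comparison. Of 23 genes known to go up in microglia around disease lesions, 19 were tested, and in running against CUS 14 had a lower mean, with a median of -0.16, 5 lower at an unadjusted p under 0.05 and 0 called, where 57.8% of all genes had a lower mean and 15.7% were lower at that p. Ctsl, the lysosomal protease cathepsin L, had 35.0, 35.1 and 31.2 FPKM in running, 41.1, 36.5 and 43.0 in CUS, and 34.0, 35.3 and 37.5 in control libraries, with -0.25 for running against CUS (adjusted p of 0.104). Cd63, Ctsz, Timp2, Ch25h and Fth1 of that list had adjusted p of 0.142 or more in each comparison.

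Of 20 inflammatory cytokines and sensors, only 10 passed the filter and 0 were called, with 5 higher and 5 lower in running against CUS and a median of 0.00. Nfkbiz, a nuclear regulator of NF-kappaB, had 2.36, 2.30 and 1.77 FPKM in running, 1.49, 1.41 and 1.60 in CUS, and 1.91, 1.48 and 1.93 in control libraries. Its running values were above all CUS values, by 0.40 with an adjusted p of 0.105. Nfkbia, Ccl12 and Il18, the highest of the list, had adjusted p of 0.188 or more in each comparison.

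Markers of other cells with myeloid genes were low. The 9 markers of border-associated macrophages, which share many of the 31 genes, summed to 7.25, 10.1 and 6.43 FPKM in running, 6.57, 6.65 and 9.63 in CUS, and 6.93, 6.57 and 6.50 in control libraries. Their highest, the scavenger receptor Stab1, stayed between 1.51 and 2.52 FPKM, and the highest sum was that of running replicate 2. Of these 9 markers 8 were tested. Their median log2 difference was 0.16 in CUS against control (5 higher, 3 lower) and 0.06 in running against CUS (4 higher, 4 lower). In running against control all 8 had a higher mean, with a median of 0.16, where 43.8% of all genes had a higher mean. The 10 markers of monocytes and neutrophils summed to 4.04, 3.40 and 4.19 FPKM in running, 11.7, 3.23 and 1.94 in CUS, and 4.38, 1.63 and 13.7 in control libraries. The monocyte receptor Ccr2 was at most 0.24 FPKM, Ly6c2 was listed at 0 in 6 libraries, and the highest of the list, the neutrophil protein S100a9, lay between 0.23 and 5.28 FPKM. Lymphocyte markers summed to between 0.99 and 1.75 FPKM, with Cd8a the highest at a mean of 0.443 FPKM. Red blood cell genes, a sign of blood left in the tissue, summed to 972, 1238 and 1086 FPKM in running, 751, 1040 and 683 in CUS, and 650, 493 and 875 in control libraries. The sums of running replicates 2 and 3 were above all CUS and control sums. All 5 genes had a higher mean in running than in control (median log2 difference of 0.72). At an unadjusted p under 0.05 in the limma test, all 5 were higher there (5.15% of all genes). All 5 also had a higher mean in running than in CUS (median of 0.42) and in CUS than in control (median of 0.35). Hba-a1, a haemoglobin chain, had the highest mean of these genes. The part of blood in the microglial values was not tested.

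Markers of other brain cells also differed between the groups, and 0 genes of these lists were called. Over all tested genes, 44.1% had a lower and 55.9% a higher mean in CUS than in control. In running against CUS 57.8% had a lower and 42.2% a higher mean, and in running against control 56.2% had a lower mean. Oligodendrocyte markers, led by the myelin gene Mbp, summed to 669, 613 and 596 FPKM in running, 751, 532 and 513 in CUS, and 676, 721 and 1255 in control libraries. Of 10, all had a lower mean in CUS than in control, with a median log2 difference of -0.53. At an unadjusted p under 0.05 in the limma test, 7 of the 10 were lower there (5.79% of all genes). All 10 also had a lower mean in running than in control (median of -0.43), and control replicate 3 stood far above the other libraries. In running against CUS 7 of the 10 had a higher mean, with a median of 0.08. Endothelial and mural markers, led by Rgs5, summed to 69.8, 95.7 and 69.99 FPKM in running, 92.1, 89.0 and 64.2 in CUS, and 89.0, 97.6 and 91.2 in control libraries. Of these, 10 of 11 had a lower mean in CUS than in control (median of -0.27), and CUS replicate 3, the highest library for most microglial genes, had the lowest sum. Of 10 astrocyte markers, led by Aldoc, 8 had a lower mean in CUS than in control (median of -0.09) and 8 a higher mean in running than in CUS (median of 0.08). All 6 meningeal markers, led by Igf2, had a higher mean in CUS than in control (median of 0.14), and 5 had a lower mean in running than in CUS (median of -0.32). Of 9 markers of cortical excitatory neurons, led by Camk2a, 6 had a higher and 3 a lower mean in CUS than in control. Their median there was 0.12, near the 0.13 of the microglial genes. In running against CUS 5 of the 9 had a higher and 4 a lower mean, with a median of 0.02. For 6 markers of striatal projection neurons, led by Ppp1r1b, the medians were -0.05 in CUS against control and -0.01 in running against CUS. Ttr, the highest choroid plexus marker, lay between 5.65 and 212 FPKM, with the highest value in control replicate 3. The part of the mix of brain cells in the microglial values was not tested.

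Members passed the adjusted threshold in running against CUS only without CUS replicate 2 or with library quality weights. Without CUS replicate 2, 1518 genes were called, and 8 members were lower, P2ry12, P2ry13, Gpr34, Fcrls, Trem2, Ly86, Cd68 and Ctss (25.8%, against 7.56% of all genes called lower). With library quality weights, 2178 genes were called and 7 members were lower, those 8 without Fcrls (22.6%, against 10.6%). Under the remaining 17 alternatives 0 members were called in running against CUS.

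**Figure D4:**
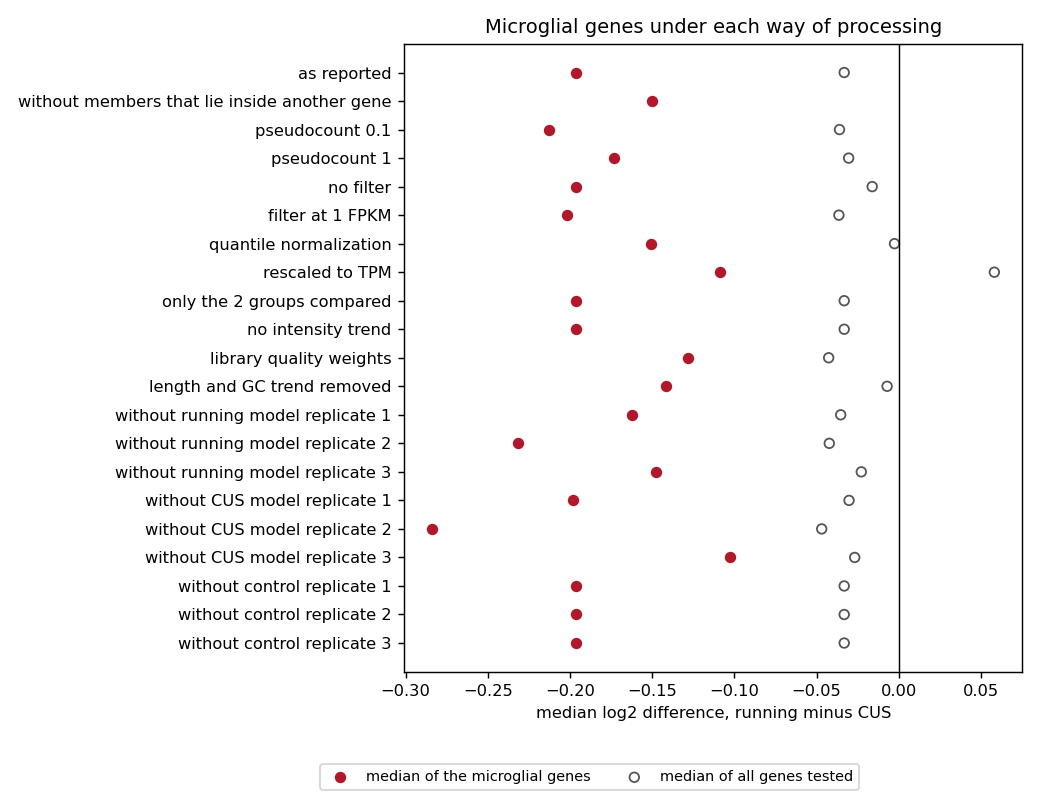
Median log2 difference of running minus CUS over the microglial genes (filled) and over all genes tested (open) as reported and under each alternative way of processing. The microglial median stays between -0.28 and -0.10, and it is nearest to 0 without CUS replicate 3.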

How the data were processed

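RNA-seq libraries were made from polyadenylated RNA of mouse medial prefrontal cortex, and the protocol in the labels does not mark the strand. The authors deposited FPKM values per gene. Per the submitters' processing notes the tools included Bowtie2 2.2.5, RSEM 1.2.12 and DESeq2 1.4.5, with build mm10, and the role of each is not given in the sources used here. Depth is therefore unknown, and no counting interval could be given. Identifiers with no gene symbol were at 0 in all libraries and were left out.

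Genes reaching 0.5 FPKM in 3 or more of the 9 libraries were tested on log2(FPKM + 0.5), a scale that understates differences of low genes. limma 3.58.1 (R 4.3.3, moderated variances with an intensity trend, 6 residual degrees of freedom) fitted all 9 libraries in 1 model, with Benjamini-Hochberg adjustment over 14013 genes and a threshold of 0.05. The code was tested on simulated data. Replicates were numbered in listing order.

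The members and all gene lists were chosen with earlier results of these data known, so lists are described by counts and medians without a test. All members are named. Every library is given for the member of each role with the highest mean, for up to 2 with the smallest unadjusted p and for some others. Of the other lists, up to 2 genes with the smallest p per comparison and the gene with the highest mean are named. A gene taken by this rule is not reported here. Ratios between members were chosen after the values were seen. Alternatives were pseudocounts of 0.1 and 1, no filter and a filter of 1 FPKM, quantile normalization, rescaling to TPM, only the 2 groups compared, no intensity trend, library quality weights, removal of a length and GC trend, and leaving out each library.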

Additional observations from a re-analysis of the deposited data

How the results depend on the processing

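No paired analysis was possible because the labels give no replicate numbers shared between groups. Under the 19 alternatives 0 members were called in CUS against control and in running against control, and in running against CUS 7 were called with library quality weights and 0 to 8 when each replicate was left out in turn. The members' median kept its sign in CUS against control (0.07 to 0.19 with a replicate left out) and in running against CUS (-0.28 to -0.10), and lay between -0.05 and 0.01 in running against control. Over all genes, CUS against control gave 0 calls with a filter at 1 FPKM, 0 with the length and GC trend removed, 8 with quality weights and 1 to 6 with a replicate left out. Running against CUS gave 0 calls with no filter, 2 after quantile normalization, 3 after rescaling to TPM, 15 from only the 2 groups, 2178 with quality weights, 2 with the length and GC trend removed and 0 to 1518 with a replicate left out. Running against control gave 1 call with no filter, 24 from only the 2 groups, 7 with no intensity trend, 147 with quality weights, 9 with the length and GC trend removed and 1 to 10 with a replicate left out. The cause of these differences was not tested. Of the single members, 17 of 31 kept their sign under all alternatives in CUS against control, 21 in running against CUS and 19 in running against control. The depth is unknown, 3 libraries a group limit the precision, and the number of genes called is unstable to the choice of libraries.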
